A study of Mus musculus with 30 samples.

Results

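The 10 genes described here encode endothelial adhesion and junction proteins and were followed in mouse retina: Pecam1, Cdh5, Emcn, Plvap, Esam, Ocln, Tjp1, Icam1, Icam2 and Vwf. They were taken by gene symbol from the platform's annotation, which gave 11 of 22690 probe sets, and each gene was read at its probe set with the highest mean over 30 arrays, so that 10 of the 12393 genes tested are described. Only Cdh5 had a second probe set. The study used oxygen-induced retinopathy (OIR), in which pups and their nursing dams are kept in 75% oxygen from postnatal day 7 (P7) for 5 days and then return to room air. Each group held 3 retinas, 1 from each of 3 pups. At P5, before the oxygen, the vitreous of OIR pups was injected with 100000 endothelial colony-forming cells (ECFC), 10000 CD34+ cells, a combination of both (110000 cells) or saline. At P12, on return to room air, other OIR pups received the same 4 injections. Untreated OIR pups and untreated pups in normoxia completed the 10 groups, so every injected group, saline included, also carried the oxygen treatment. The labels name neither the strain or sex of the pups nor the species of the injected cells. Every sample label gives P17 as the stage, but the treatment protocol names either day for euthanasia and the design text pairs P5 injection with P12 collection. Collection day and group therefore cannot be told apart wherever a P5 group is set against a P12 or untreated group.

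Endothelial cells line retinal vessels and hold each other through adherens junctions, built on the cadherin encoded by Cdh5, and tight junctions, to which occludin (Ocln) and the scaffold ZO-1 (Tjp1) belong. Pecam1, Esam and Icam2 encode immunoglobulin-type adhesion molecules of endothelial contacts and surfaces, Icam1 is an inducible leukocyte ligand, Emcn encodes the mucin endomucin of veins and capillaries, Vwf the clotting and platelet-adhesion factor stored in endothelial granules, and Plvap the diaphragm protein of fenestrated or leaky endothelium. In the OIR model central capillaries are lost in oxygen and new vessels, many misdirected into the vitreous, grow after the return to air.

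All 10 genes lay above Y-linked genes on arrays where these should be absent. The Y-linked genes Eif2s3y, Kdm5d and Uty read 3.61 to 5.41 (log2 signal) on 14 arrays with high Xist. The lowest value of any of the 10 genes was 6.08, for Ocln. Lists for cells that are not retinal read higher than the Y-linked genes. In normoxia platelet genes averaged 6.38 to 6.61 and corneal and conjunctival epithelium genes 5.68 to 5.79. Ocln (6.32 to 6.69), Icam1 (6.41 to 7.05) and Icam2 (6.46 to 6.81) lay near the platelet values there, so their detection in normoxia is not shown. By mean level the 10 genes ran from the 25.4th percentile of genes, Ocln, to the 92.5th, Tjp1. Rod genes, defining markers of retina, were high on every array, with a 5-gene mean of 13.58 to 13.9. Array medians were 8.16 to 8.49, and replicates correlated with r of 0.964 to 0.997. Arrays also differed in ways the groups share. The lens marker mean was 7.46 to 14.11 on the 12 P5 arrays, 6.03 to 7.09 on the 12 P12 arrays and 5.99 to 9.08 on the 6 untreated arrays. Hybridisation control probe sets read 13.23 to 13.65 on P12 arrays and 11.86 to 12.96 on the others. In bulk retina fewer cells of a type and less RNA per cell cannot be told apart. P-values measure the spread between pups within this experiment.

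In untreated OIR against normoxia, the junction and adhesion genes of endothelial cells mostly rose, by 1.7 to 3.86-fold, while the tight junction genes did not pass the test. Of the 10 genes 6 rose and 0 fell, when 3.59% of all 12393 genes rose and 0.968% fell (limma, Benjamini-Hochberg adjusted p under 0.05). Vwf (chr6:125552948-125686679, GRCm38.p6, as for all coordinates here) had 9.64, 9.66 and 9.81 log2 signal in OIR retinas and 7.75, 8.08 and 7.42 in normoxia. The groups did not overlap, and it rose by 1.95 ± 0.21 log2 (SE; 3.86-fold, adjusted p = 3.8e-06). Cdh5, the gene of VE-cadherin (chr8:104101613-104144504), had 9.76, 9.93 and 9.78 in OIR retinas and 8.27, 8.45 and 8.32 in normoxia, a rise of 1.48 ± 0.19 (2.79-fold, adjusted p = 3.1e-05). Its second probe set gave 1.36 ± 0.19 (adjusted p = 9.7e-05), with a lower level, 8.82 in OIR and 7.47 in normoxia. Pecam1 (chr11:106654213-106715281) stood at 9.15, 8.92 and 8.92 in OIR retinas and at 7.65, 7.63 and 7.32 in normoxia, and rose by 1.46 ± 0.17 (2.76-fold, adjusted p = 9.5e-06). Emcn, the endomucin gene (chr3:137341062-137431069), had 8.6, 8.95 and 9.23 in OIR retinas and 7.3, 7.35 and 7.56 in normoxia, a rise of 1.52 ± 0.20 (2.87-fold, adjusted p = 3.5e-05).

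The leukocyte-binding genes rose by less. Icam1 (chr9:21015940-21028814) had 8.06, 7.74 and 7.63 in OIR retinas and 7.05, 6.41 and 6.78 in normoxia, without overlap, and rose by 1.06 ± 0.24 (2.09-fold, adjusted p = 0.0076). Icam2, constitutive on endothelium (chr11:106377656-106388139), had 7.22, 7.67 and 7.41 in OIR retinas and 6.46, 6.81 and 6.74 in normoxia, and rose by 0.76 ± 0.15 (1.7-fold, adjusted p = 0.0037). Microglia and macrophage markers, whose cells can carry Icam1, moved with these 2 genes: their 11-gene mean was 7.77 to 7.94 in OIR and 6.89 to 6.99 in normoxia, and 3 of the 11 rose (C1qc, C1qb and Aif1), 0 fell. Their part in the Icam1 difference was not tested.

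Esam, Plvap, Ocln and Tjp1 did not pass the test in OIR. Esam, an endothelial junction gene (chr9:37528089-37538319), had 8.64, 8.79 and 8.86 in OIR retinas and 8.25, 8.33 and 8.17 in normoxia, which did not overlap, but its difference of 0.51 ± 0.20 had an adjusted p of 0.14 (95% interval 0.11 to 0.92). Counting Esam, 7 of the 10 genes had groups that did not overlap, when 12.9% of all genes did so with OIR higher. Plvap (chr8:71497753-71511806) differed by 0.36 ± 0.17 (0.01 to 0.70, adjusted p = 0.24) and Ocln (chr13:100496504-100552718) by 0.28 ± 0.19 (-0.1 to 0.67, adjusted p = 0.41). Tjp1 (chr7:65296165-65527850), read at 11.67 ± 0.067 in OIR and 11.69 ± 0.2 in normoxia (SD, n = 3 each), differed by -0.02 ± 0.10 (-0.22 to 0.18, adjusted p = 0.93). A p that misses the threshold does not show equal levels, and Tjp1 is also made by neurons and glia, so a whole-retina value carries those cells. Over the 10 genes the median difference was 0.91, against -0.02 over all genes tested.

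Promoter sequence is shown for genes of contrasting behaviour: Emcn and Icam1, which rose in OIR, and Tjp1, which stayed near 0. RefSeq windows (GRCm38.p6) matched 4 of the 10 genes. The 250 bases before the transcript start used by that table are printed. This start lies just past the gene start given above for Emcn, at it for Icam1, and well inside the gene's range for Tjp1, so the Tjp1 window is not the one before its outermost start. The windows are, for Emcn, chr3:137340828-137341077 on the plus strand, for Icam1, chr9:21015690-21015939 on the plus strand, and for Tjp1, chr7:65371245-65371494 on the minus strand. Capitals mark a match on either strand to CAGGAA, an ETS-type core found in many endothelial genes, or to GGAAATTCC, an NF-kB type site known from inflammatory genes.
Emcn: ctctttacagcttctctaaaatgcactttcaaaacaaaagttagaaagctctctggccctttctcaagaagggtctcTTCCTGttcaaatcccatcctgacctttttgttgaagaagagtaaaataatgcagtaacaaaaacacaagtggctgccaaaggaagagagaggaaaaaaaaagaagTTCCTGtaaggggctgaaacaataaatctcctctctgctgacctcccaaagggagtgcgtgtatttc
Icam1: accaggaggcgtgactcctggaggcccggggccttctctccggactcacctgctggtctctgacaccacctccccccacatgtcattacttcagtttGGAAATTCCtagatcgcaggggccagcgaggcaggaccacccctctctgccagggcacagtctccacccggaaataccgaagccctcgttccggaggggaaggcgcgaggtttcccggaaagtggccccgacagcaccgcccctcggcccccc
Tjp1: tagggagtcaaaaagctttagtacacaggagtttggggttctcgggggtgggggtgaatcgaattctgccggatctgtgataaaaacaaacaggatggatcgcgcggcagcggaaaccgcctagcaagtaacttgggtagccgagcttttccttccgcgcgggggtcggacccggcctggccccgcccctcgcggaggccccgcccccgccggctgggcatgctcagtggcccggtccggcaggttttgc
The search covered 300-base windows, 250 bases before to 50 after the start. Emcn held 2 CAGGAA matches, at -173 to -168 and at -67 to -62 from the start, both on the minus strand, a motif present in 30.6% of 32851 windows. Icam1 held 1 GGAAATTCC, at -153 to -145, a match that 0.317% of windows held. Tjp1 held neither in this window. Its 250 upstream bases had 22 CpG and 63.2% GC, against 1 CpG and 40.8% GC for Emcn and 15 CpG and 65.2% GC for Icam1. The search also covered ACGTG, the hypoxia response core, TATAAA, the TATA box, and ACAAT, a SOX type motif. Tjp1 held ACGTG at 43 to 47 from the start, Icam1 TATAAA at 14 to 19 and Emcn ACAAT at -49 to -45. These were present in 19.6, 13.6 and 31% of windows. Ocln, the other matched gene, held 0 CAGGAA and 0 GGAAATTCC in either of its windows. A match is a string of letters and no site was measured.

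Other endothelial genes also rose in OIR. In lists chosen from textbook knowledge with earlier results of these data known, 9 of 24 measured adhesion and leukocyte capture genes and 12 of 23 receptors and transcription factors rose, and 0 fell in either list. The adhesion list was led by Mcam, the melanoma cell adhesion molecule of vessel walls (1.95 ± 0.19), Cd93 (1.75 ± 0.18), Cd34 (1.85 ± 0.28) and Clec14a (1.11 ± 0.17). Robo4, an endothelial guidance receptor, rose by 1.58 ± 0.25 and Sox18, a vascular transcription factor, by 1.26 ± 0.23. Other junction genes rose in 6 of 28 cases and fell in 0, among them the gap junction gene Gja4, by 1 ± 0.2, and the T-cadherin gene Cdh13, by 1 ± 0.23, with a median difference of 0.22 over the list. Cldn5, the tight junction claudin of barrier endothelium, differed by 0.73 ± 0.24 and did not pass (adjusted p = 0.089, interval 0.22 to 1.23). Of 7 measured leukocyte integrins and selectins that bind these surface molecules 0 passed in either direction. Platelet and megakaryocyte genes, whose cells also make Vwf, passed in 0 of 7 cases, with a 7-gene mean of 6.34 to 6.51 in OIR and 6.38 to 6.61 in normoxia. Of 11 barrier transporters 2 rose, the amino acid carriers Slc7a1 (0.89 ± 0.14) and Slc7a5 (0.54 ± 0.11), and 1 fell, the organic anion carrier Slco1a4 (-1.36 ± 0.28). Pericyte genes rose in 8 of 11 cases and fell in 0. Without OIR replicate 3, 2 of the 28 junction genes and 8 of the 23 receptors and factors passed in either direction.

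**Figure D1:**
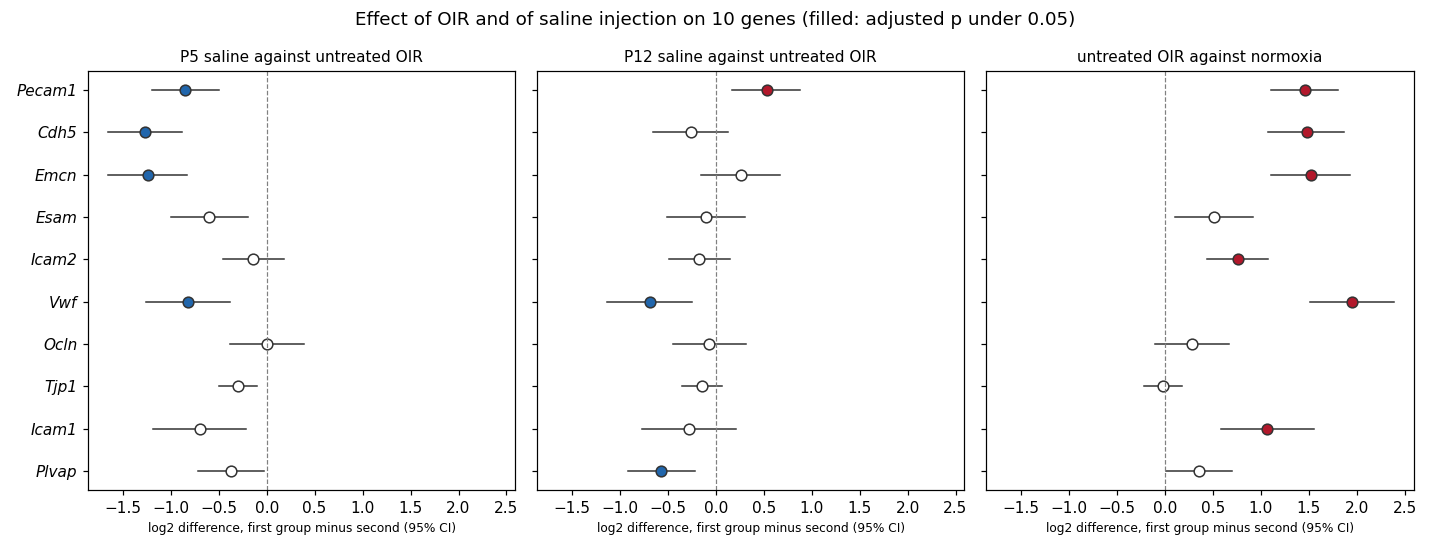
Log2 differences of 10 genes with 95% intervals, for P5 saline and P12 saline each minus untreated OIR and untreated OIR minus normoxia; filled points passed limma's adjusted p under 0.05, red for higher and blue for lower. In OIR 6 filled genes lie above 0, with Vwf at 1.95, and P5 saline shows 4 genes below 0, with Cdh5 at -1.27.

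**Figure D2:**
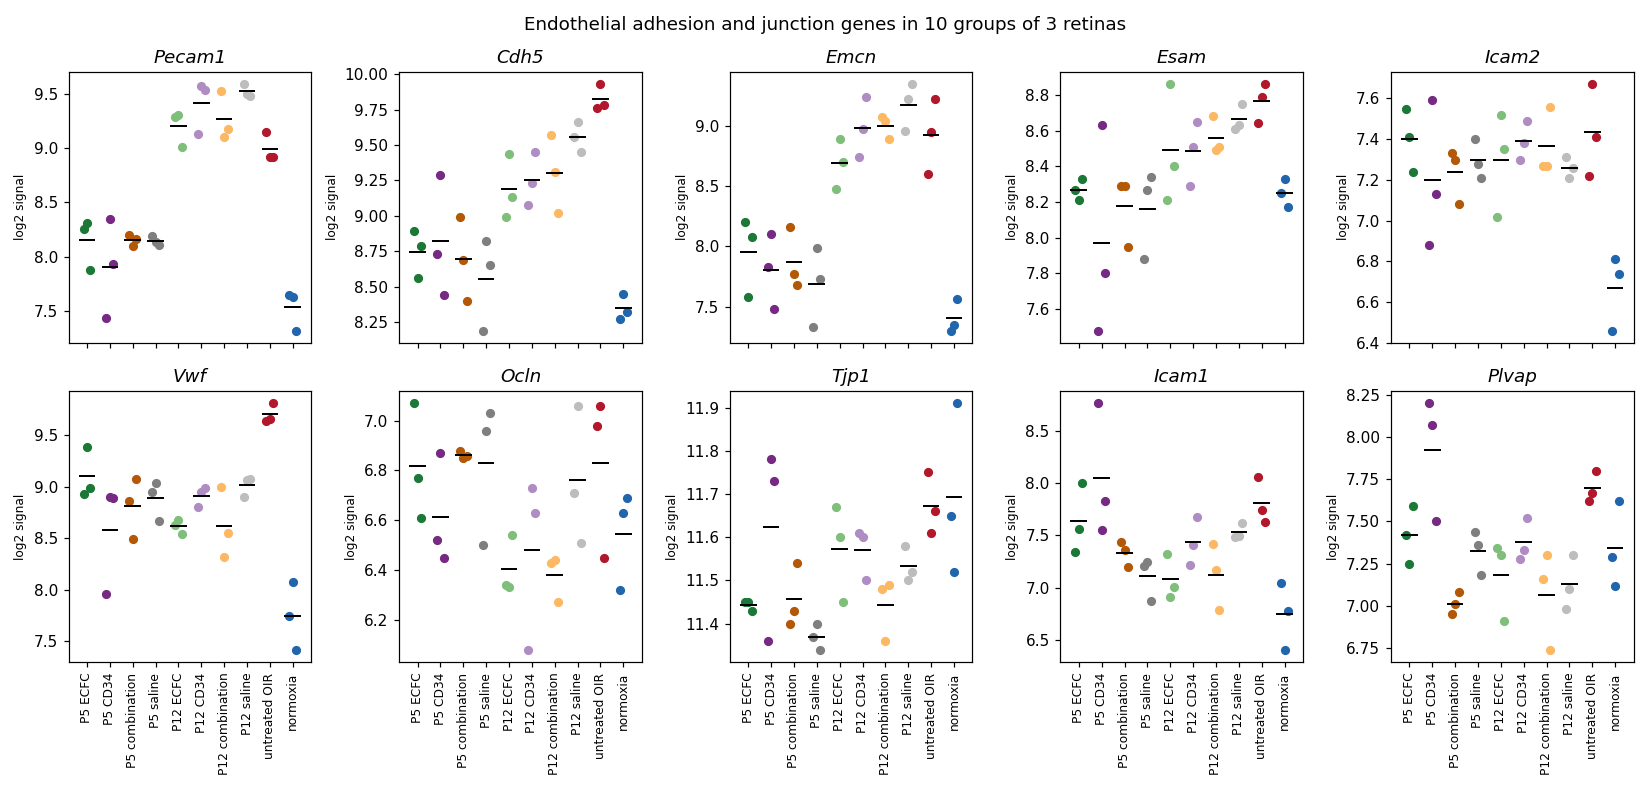
Log2 signal of each gene on each array, 3 retinas per group, with the group mean as a black bar; each panel has its own vertical scale. For Pecam1 and Emcn the P12 arrays all lie above the P5 arrays, and normoxia is the lowest group by mean for Pecam1, Cdh5, Emcn, Icam1, Icam2 and Vwf.

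P5 saline retinas, the background of the P5 cell injections, were set against untreated OIR. Injection and collection day cannot be told apart in this comparison. Retinas of P5 saline pups held less of 4 endothelial genes than untreated OIR retinas, Pecam1, Cdh5, Emcn and Vwf, and more of 0, when 4.88% of all genes fell and 3.81% rose. Pecam1 had 8.19, 8.14 and 8.11 in P5 saline retinas and 9.15, 8.92 and 8.92 in untreated OIR, and fell by 0.85 ± 0.17 on the log2 scale (adjusted p = 0.0033). Cdh5 changed by -1.27 ± 0.19 (adjusted p = 0.00046), and its second probe set by -1.07 ± 0.19 (adjusted p = 0.0017). Emcn changed by -1.24 ± 0.2 (adjusted p = 6e-04) and Vwf by -0.82 ± 0.21 (adjusted p = 0.018), without overlap in either. Without P5 saline replicate 3 Vwf gave -0.71 (adjusted p = 0.066), and without OIR replicate 3 it gave -0.76 (adjusted p = 0.073). With only the arrays of these 2 groups fitted, Emcn kept its value of -1.24 but had an adjusted p of 0.059. The remaining 6 genes did not pass: Icam1 differed by -0.70 ± 0.24 (adjusted p = 0.065), Esam by -0.60 ± 0.2 (adjusted p = 0.06) and Tjp1 by -0.30 ± 0.1 (adjusted p = 0.057), each without overlap. Counting these and Plvap, 8 of the 10 genes lay wholly lower in P5 saline, when 14% of all genes did. Plvap differed by -0.37 ± 0.17 (-0.72 to -0.03, adjusted p = 0.17), Icam2 by -0.14 ± 0.15 (-0.46 to 0.18) and Ocln by 0 ± 0.19 (-0.38 to 0.39).

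Markers of tissue outside the retina moved with these falls. Of 12 measured lens genes 12 rose in P5 saline and 0 fell, and the lens mean was 13.84, 13.45 and 10.88 in P5 saline retinas and 6.22, 5.99 and 7.05 in untreated OIR. Pigment epithelium genes rose in 7 of 11 cases and fell in 0, at a mean of 8.68, 10.34 and 9.79 in P5 saline and 7.97 to 8.03 in untreated OIR. With the lens mean as a covariate all 4 differences stayed past the threshold: Pecam1 at -1.29, Cdh5 at -1.42, Emcn at -1.36 and Vwf at -1.38. The lens mean did not overlap between these groups, so the covariate cannot tell lens and group apart. Inside the retina, pericyte and mural cell genes fell in 6 of 11 cases, Cspg4 (-1.39 ± 0.18) and Rgs5 (-0.81 ± 0.16) among them, and rose in 0, with a mean of 8.05, 8.5 and 8.28 in P5 saline and 8.91, 9.05 and 9.15 in untreated OIR. The part of the lens, the pigment epithelium and the pericytes was not tested apart from the group. Other adhesion genes fell in 8 of 24 cases, led by Mcam (-1.38 ± 0.19) and Eng (-0.96 ± 0.15), receptors and transcription factors in 9 of 23, with Fli1, an ETS factor, at -1.99 ± 0.35, and junction genes in 3 of 28. With the lens covariate these counts were 3, 4 and 0.

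Against normoxia, P5 saline retinas still had 3 of the 10 genes higher and 1 lower, when 3.91% of all genes rose and 4.2% fell. Vwf rose by 1.13 ± 0.21 (2.19-fold, adjusted p = 0.0024), Icam2 by 0.63 ± 0.15 (adjusted p = 0.014) and Pecam1 by 0.61 ± 0.17 (adjusted p = 0.027). Tjp1 fell by 0.32 ± 0.10 on the log2 scale (adjusted p = 0.044). Leaving out single arrays lost several of these calls. Without P5 saline replicate 1 Pecam1 gave 0.59 (adjusted p = 0.078), Icam2 0.57 (adjusted p = 0.059) and Tjp1 -0.32 (adjusted p = 0.091), and without normoxia replicate 3 Pecam1 gave 0.51 (adjusted p = 0.13) and Tjp1 -0.21 (adjusted p = 0.23). Pecam1 was also lost without P5 saline replicate 2 (0.62, adjusted p = 0.072), Icam2 without normoxia replicate 1 (0.52, adjusted p = 0.062), and Tjp1 without P5 saline replicate 2 (-0.34, adjusted p = 0.087), P5 saline replicate 3 (-0.31, adjusted p = 0.095) or normoxia replicate 1 (-0.34, adjusted p = 0.064). Cdh5 and Emcn differed from normoxia by 0.21 ± 0.19 (-0.19 to 0.6) and 0.28 ± 0.2 (-0.13 to 0.69), neither of which passed. With the lens covariate the values were 0.66 for Vwf (adjusted p = 0.12), 0.37 for Icam2 (adjusted p = 0.26) and 0.25 for Pecam1 (adjusted p = 0.47). The lens mean was 10.88 to 13.84 in P5 saline and 6.3 to 9.08 in normoxia, so lens and group cannot be told apart here either. Nor can collection day and group.

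P12 saline retinas had 6 of the 10 genes above normoxia, Pecam1, Cdh5, Emcn, Icam1, Icam2 and Vwf, and 0 below it, beside 9.93% of all genes higher and 17.6% lower. This comparison shares its normoxia arrays with the ones above. Pecam1 was 1.99 ± 0.17 above normoxia (3.97-fold, adjusted p = 7.4e-08), Emcn 1.78 ± 0.2 (3.42-fold, adjusted p = 1.3e-06), Vwf 1.26 ± 0.21 (2.4-fold, adjusted p = 0.00011) and Cdh5 1.21 ± 0.19 (2.32-fold, adjusted p = 5.8e-05). Icam1 rose by 0.78 ± 0.24 (adjusted p = 0.015) and Icam2 by 0.59 ± 0.15 (adjusted p = 0.0057). Icam1 gave 0.74 (adjusted p = 0.055) without P12 saline replicate 3 and 0.61 (adjusted p = 0.091) without normoxia replicate 2. With the hybridisation controls as a covariate Icam2 gave 0.44 ± 0.19 (adjusted p = 0.081) and no longer passed, and Tjp1 gave -0.35 ± 0.11 (adjusted p = 0.017) and did. These controls read 13.25 to 13.48 in P12 saline and 12.58 to 12.79 in normoxia. They did not overlap, so the covariate cannot tell hybridisation and group apart. Microglia and macrophage markers moved with Icam1 here too: 4 of 11 rose (Cx3cr1, Aif1, Tyrobp and C1qb), 0 fell, and their mean was 7.48, 7.83 and 7.94 in P12 saline retinas and 6.94, 6.89 and 6.99 in normoxia. Of 11 pericyte and mural cell genes 4 rose (Pdgfrb, Rgs5, Acta2 and Tagln) and 0 fell, at a mean of 8.59, 8.65 and 8.89 in P12 saline and 8.13, 8.08 and 8.16 in normoxia. Their part in these differences was not tested.

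Against untreated OIR, P12 saline retinas had 1 of the 10 genes higher and 2 lower, when 5.95% of all genes rose and 15.4% fell. Pecam1 was at 9.59, 9.5 and 9.48 in P12 saline retinas and 9.15, 8.92 and 8.92 in untreated OIR, and rose by 0.53 ± 0.17 (adjusted p = 0.03). Vwf was at 8.9, 9.07 and 9.08 in P12 saline and 9.64, 9.66 and 9.81 in untreated OIR, and fell by 0.69 ± 0.21 on the log2 scale (adjusted p = 0.023). Plvap, at 6.98, 7.1 and 7.3 in P12 saline and 7.62, 7.67 and 7.8 in untreated OIR, fell by 0.57 ± 0.17 (adjusted p = 0.018). These calls were near the threshold. Without P12 saline replicate 1 none of the 3 passed (Pecam1 0.49, adjusted p = 0.098; Plvap -0.49, adjusted p = 0.087; Vwf -0.63, adjusted p = 0.089). Without OIR replicate 3 likewise none passed, with Pecam1 at 0.48 (adjusted p = 0.09), Plvap at -0.52 (adjusted p = 0.065) and Vwf at -0.63 (adjusted p = 0.075). Pecam1 was also lost without P12 saline replicate 2 (adjusted p = 0.061), P12 saline replicate 3 (adjusted p = 0.063) or OIR replicate 2 (adjusted p = 0.1), and Vwf without OIR replicate 2 (adjusted p = 0.055). Quantile normalization gave Plvap -0.44 (adjusted p = 0.084) and Vwf -0.54 (adjusted p = 0.091), and centring each array on its median gave -0.38 (adjusted p = 0.085) and -0.5 (adjusted p = 0.098), with the all-gene median at 0.16 in place of -0.03. With the hybridisation controls as a covariate, Pecam1 gave 0.31 (adjusted p = 0.39), Plvap -0.45 (adjusted p = 0.21) and Vwf -1.12 (adjusted p = 0.0087). Tjp1, which did not pass without the covariate, gave -0.37 ± 0.12 (adjusted p = 0.038). The controls read 13.25 to 13.48 in P12 saline and 12.44 to 12.52 in untreated OIR, so here too hybridisation and group cannot be told apart. Platelet genes, which can share Vwf, fell in 2 of 7 cases (Gp1bb, -0.78 ± 0.18, and Itga2b, -0.41 ± 0.12) and rose in 0, with a mean of 6.41 to 6.44 in P12 saline and 6.34 to 6.51 in untreated OIR. Pericyte and mural cell genes fell in 2 of 11 (Cspg4 and Notch3) and rose in 0, with a mean of 8.59 to 8.89 in P12 saline and 8.91 to 9.15 in untreated OIR. Their part was not tested.

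Levels of 2 genes separated by injection day, whatever was injected. Over the 12 P5 arrays Pecam1 lay between 7.44 and 8.35 (median 8.15), and over the 12 P12 arrays between 9.01 and 9.59 (median 9.4). Emcn ran from 7.33 to 8.2 (median 7.8) on P5 arrays and from 8.48 to 9.35 (median 8.97) on P12 arrays, again without overlap. For these 2 of the 10 genes the P5 arrays lay wholly below the P12 arrays, as they did for 2.2% of all genes, and for 0 of the 10 wholly above, which held for 7.79% of all genes. Cdh5 had medians of 8.71 at P5 and 9.37 at P12, with overlap, and Icam2 medians of 7.29 at P5 and 7.3 at P12. Vwf had 8.92 at P5 and 8.85 at P12. Hybridisation controls, the lens mean and possibly the collection day differ between the same arrays, so the day cannot be told apart from them.

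Few neighbours in the order of group means were separate. Pecam1 had the 4 P12 groups at the top (means 9.21 to 9.52), then untreated OIR (9 ± 0.134), the P5 groups (7.91 to 8.15) and normoxia (7.54 ± 0.184), and only untreated OIR and the next P5 group did not overlap. Emcn had untreated OIR (8.92 ± 0.313) among the P12 groups (8.69 to 9.18), above the P5 groups (7.68 to 7.96) and normoxia (7.41 ± 0.14). For Cdh5 the order from the top was untreated OIR (9.82 ± 0.0909), P12 saline (9.56 ± 0.105), P12 combination (9.3 ± 0.274), P12 CD34 (9.25 ± 0.184) and P12 ECFC (9.19 ± 0.231), then P5 CD34 (8.82 ± 0.428), P5 ECFC (8.75 ± 0.166), P5 combination (8.69 ± 0.298), P5 saline (8.55 ± 0.322) and normoxia (8.35 ± 0.0914; SD, n = 3 each). Only untreated OIR was separate from the next group by range. Vwf had untreated OIR at the top (9.7 ± 0.0965), P5 ECFC next (9.1 ± 0.249), and normoxia last (7.75 ± 0.33), with the 7 groups between at 8.58 to 9.02. Plvap had its highest mean in P5 CD34 (7.92 ± 0.373) and its lowest in P5 combination (7.01 ± 0.0655). Esam ran from 8.76 ± 0.113 in untreated OIR to 7.97 ± 0.591 in P5 CD34, with normoxia at 8.25 ± 0.0814. Icam1 ran from 8.05 ± 0.632 in P5 CD34 and 7.81 ± 0.223 in untreated OIR to 6.75 ± 0.325 in normoxia. Icam2 lay at 7.2 to 7.43 in the 9 OIR groups and at 6.67 ± 0.183 in normoxia, which did not overlap with any of them. Tjp1 moved least, with group means of 11.37 in P5 saline to 11.69 in normoxia, and Ocln ran from 6.38 in P12 combination to 6.86 in P5 combination.

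Injected cells were compared with saline of the same day to show what the cells added. Of the 6 comparisons 5 had 0 of the 10 genes called. ECFC at P5 against P5 saline called 0 of 12393 genes (0% of all genes), with 779 at an unadjusted p under 0.05 in limma, among them 1 of the 10, Icam1 (0.52 ± 0.24, interval 0.04 to 1.01, adjusted p = 0.74). The combination at P5 called 0 (0%), with 978 genes and 0 of the 10 at an unadjusted p under 0.05, and differences of the 10 from -0.31 for Plvap to 0.22 for Icam1. For Vwf the interval ran from -0.51 to 0.36 around -0.07, so a p past the threshold in neither direction does not show equal levels.

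At P12 the ECFC arm called 2 of 12393 genes (0.0161%), the CD34 arm 0 and the combination arm 0 (0% each), and none of these was among the 10. At an unadjusted p under 0.05 the ECFC arm had 1996 genes and 1 of the 10, the CD34 arm 643 and 0, and the combination arm 1226 and 0. Emcn was at 8.48, 8.89 and 8.7 in P12 ECFC retinas and 8.96, 9.23 and 9.35 in P12 saline, a difference of -0.49 ± 0.20 (-0.91 to -0.08, adjusted p = 0.25), without overlap. Cdh5 differed by -0.37 ± 0.19, Pecam1 by -0.32 ± 0.17, Icam1 by -0.45 ± 0.24 and Vwf by -0.40 ± 0.21 in the same arm (adjusted p = 0.33 to 0.35), also without overlap. These 5 of the 10 genes lay wholly lower, as did 13.6% of all genes, and none of the 5 passed the test. Over the 10 genes the median difference with ECFC was -0.34, against 0.02 over all genes. The combination gave a median of -0.22 and CD34 one of -0.11. The interquartile range of the arrays averaged 3.21 in P12 ECFC, 3.23 in P12 combination and 3.33 in P12 CD34, against 3.44 in P12 saline. Its part in these differences was not tested. The 3 arms share the P12 saline arrays.

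CD34+ cells at P5 were the one injection of the 6 in which any of the 10 genes passed: Plvap and Icam1 were higher than in P5 saline, and 0 of the 10 were lower, when 3.07% of all genes rose and 5.4% fell. Icam1 had 8.76, 7.55 and 7.83 in P5 CD34 retinas and 7.21, 7.25 and 6.87 in P5 saline, and rose by 0.94 ± 0.24 (1.92-fold, adjusted p = 0.015). Plvap had 8.2, 8.07 and 7.5 in P5 CD34 and 7.44, 7.36 and 7.18 in P5 saline, and rose by 0.60 ± 0.17 (1.51-fold, adjusted p = 0.028). Both pairs of groups were separate, but single arrays decided the calls. Without P5 CD34 replicate 1 Icam1 gave 0.59 (adjusted p = 0.11) and Plvap 0.46 (adjusted p = 0.14), and without P5 saline replicate 3 they gave 0.82 (adjusted p = 0.079) and 0.53 (adjusted p = 0.12). Plvap was also lost without P5 saline replicate 2 (0.62, adjusted p = 0.058) or P5 CD34 replicate 2 (0.53, adjusted p = 0.074). Esam gave -0.52 (adjusted p = 0.038) without P5 CD34 replicate 2, and Tjp1 0.38 (adjusted p = 0.019) without P5 CD34 replicate 1.

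P5 CD34 replicate 1 stood apart in several lists. Its microglia and macrophage mean was 9.69, when the other P5 CD34 retinas had 7.57 and 8.31 and P5 saline 8.02, 7.35 and 7.35. Its ganglion cell mean was 9.08, beside 11.58 and 9.94 in the other P5 CD34 retinas and 11.43 to 11.85 in P5 saline. Its lens mean was 7.46, beside 14.11 and 14.02, and Pecam1 and Vwf were low in it, at 7.44 and 7.96. Pigment epithelium genes averaged 10.82, 10.37 and 10.52 in P5 CD34 and 8.68, 10.34 and 9.79 in P5 saline, and 4 of 11 rose, 0 fell. Of the microglia markers 3 of 11 rose (Aif1, C1qb and Csf1r) and 0 fell, and of 4 ganglion cell genes 4 fell. Their part in the Icam1 and Plvap differences was not tested. Junction genes rose in 5 of 28 cases and fell in 1 (Jam2, -0.45 ± 0.12), led by Ctnna1, an adherens junction linker (0.42 ± 0.08), and adhesion genes rose in 3 of 24 and fell in 1 (Alcam, -0.55 ± 0.17), with Itga6, an integrin of vessels and epithelia, at 0.83 ± 0.17.

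**Figure D3:**
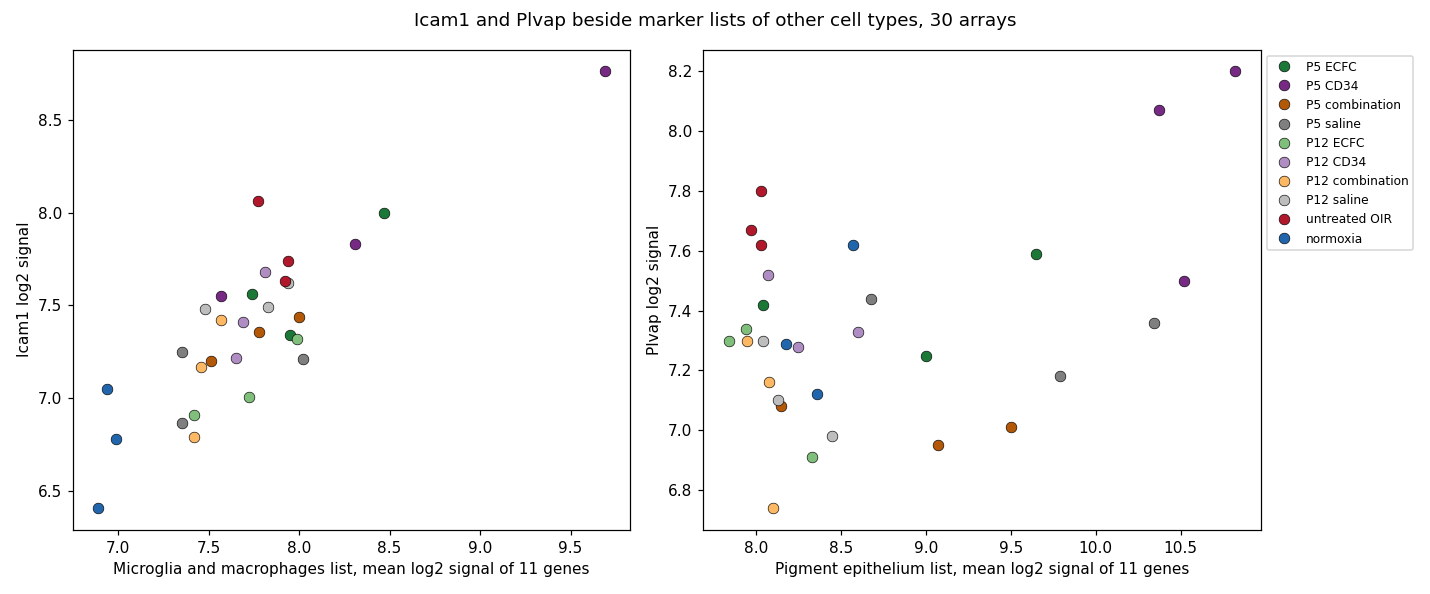
Icam1 against the mean of 11 microglia and macrophage genes (left) and Plvap against the mean of 11 pigment epithelium genes (right), in log2 signal, 1 point per array and 30 arrays. P5 CD34 replicate 1 lies at the upper right of both panels, with Icam1 at 8.76 and Plvap at 8.2, and the normoxia arrays at the lower left of the left panel.

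**Figure D4:**
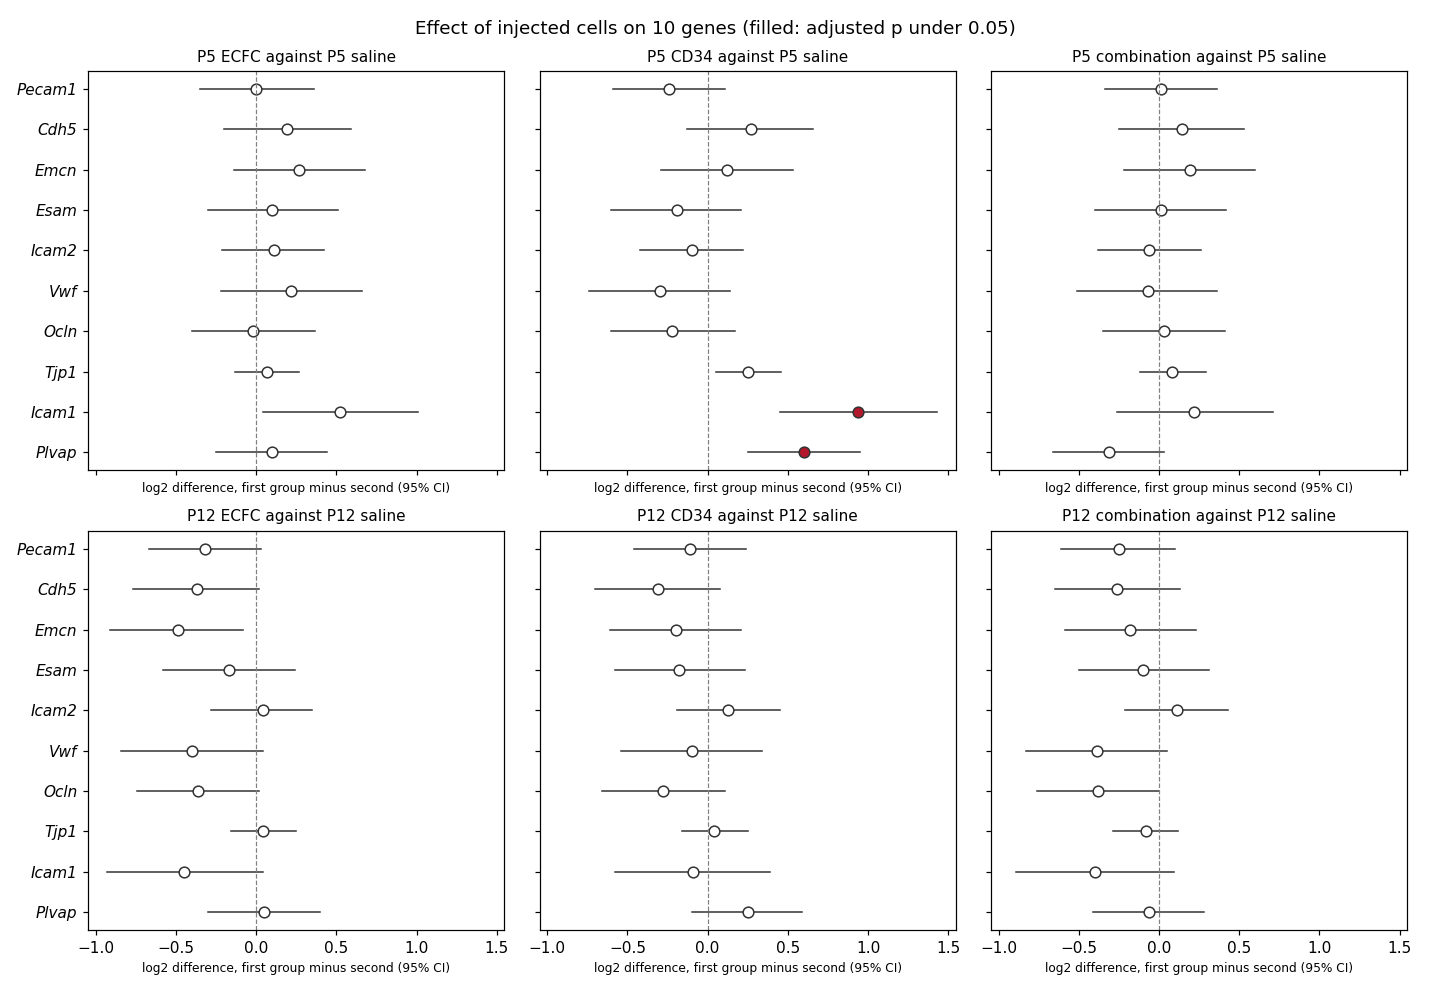
Log2 differences of 10 genes with 95% intervals for 6 cell injections, each minus saline of the same day; filled points passed limma's adjusted p under 0.05. Only Icam1 (0.94) and Plvap (0.6) after CD34 injection at P5 are filled.

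The combination was set against each single cell type to show whether the mixture differed. At P5 Plvap was lower in the combination than in CD34, at 6.95, 7.01 and 7.08 in P5 combination retinas and 8.2, 8.07 and 7.5 in P5 CD34, and it changed by -0.91 ± 0.17 (adjusted p = 0.0023). This 1 of 10 genes lower, with 0 higher, stood against 3.56% of all genes lower and 4.27% higher. Leaving out any single array kept this call, with values from -1.12 to -0.77. Icam1 differed by -0.72 ± 0.24 (-1.2 to -0.23, adjusted p = 0.064), and it gave -0.96 (adjusted p = 0.012) without P5 CD34 replicate 2. Pigment epithelium genes averaged 9.07, 9.5 and 8.15 in P5 combination and 10.82, 10.37 and 10.52 in P5 CD34, and 6 of 11 fell, 0 rose. Microglia and macrophage markers averaged 8, 7.78 and 7.51 in P5 combination and 9.69, 7.57 and 8.31 in P5 CD34, and 0 of 11 passed. Over the 30 arrays Plvap had r of 0.489 with the microglia mean and 0.39 with the pigment epithelium mean. Icam1 had r of 0.849 with the microglia mean and 0.38 with the pigment epithelium mean. The part of either list in the Plvap and Icam1 differences was not tested. The combination against ECFC at P5 called 0 of the 10 and 0% of all genes (151 genes and 1 of the 10, Plvap, at an unadjusted p under 0.05; Plvap -0.41 ± 0.17, interval -0.76 to -0.06). At P12 the combination called 0 against ECFC and 0 against CD34 (0% of all genes each, with 263 and 561 genes and 0 of the 10 at an unadjusted p under 0.05).

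Whether the cells acted differently at P5 and P12 was tested as a difference of differences. Of the 10 genes 0 passed for ECFC, CD34 or the combination, when 4, 235 and 0 genes of 12393 did (0.0323%, 1.9% and 0%). Icam1 came nearest, with the CD34 effect 1.03 ± 0.33 larger at P5 (0.34 to 1.72, adjusted p = 0.1) and the ECFC effect 0.97 ± 0.33 larger (0.28 to 1.66, adjusted p = 0.31). Emcn followed for ECFC at 0.77 ± 0.28 (0.19 to 1.35, adjusted p = 0.32). Without P5 CD34 replicate 2 the Icam1 value for CD34 was 1.28 (adjusted p = 0.019). For ECFC 1480 genes and 3 of the 10 had an unadjusted p under 0.05, for CD34 2102 genes and 2, and for the combination 1419 genes and 0.

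Pecam1, Cdh5, Emcn and Esam were the most alike of the 10 genes. Over the 30 arrays, which share their group differences, Pearson's r was 0.904 for Cdh5 with Emcn, 0.901 for Pecam1 with Emcn, 0.803 for Cdh5 with Esam and 0.797 for Pecam1 with Cdh5. After group means were removed Cdh5 with Emcn was 0.764 and Cdh5 with Esam 0.769, but Pecam1 with Cdh5 was 0.364. Pecam1 with Emcn was 0.0162, so this pair was alike between groups and not within them. Within groups Pecam1 with Vwf gave 0.7 and Icam1 with Icam2 -0.665. Pecam1 with Plvap gave -0.283 and Tjp1 with Icam2 -0.202. Plvap with Icam1 gave 0.617 over all arrays and 0.484 within groups.

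**Figure D5:**
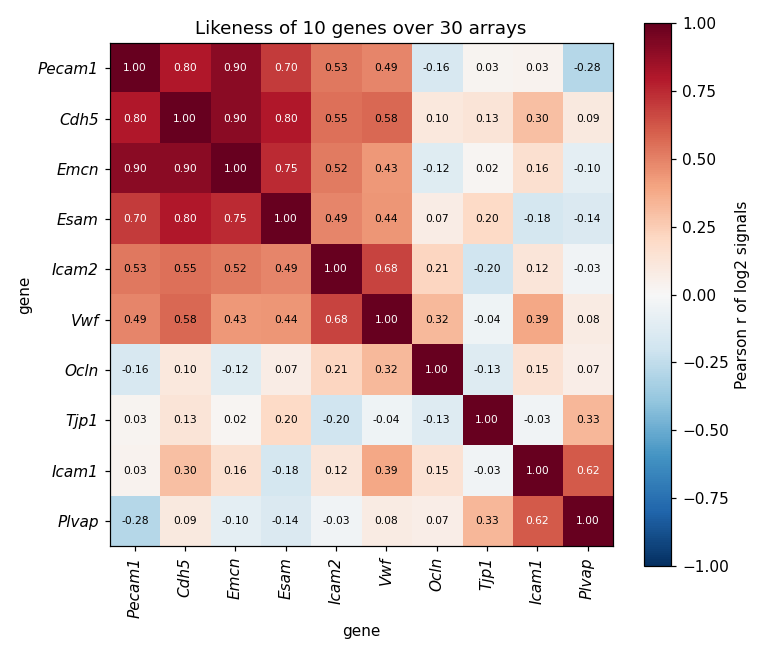
Pearson correlation of log2 signal over 30 arrays for each pair of the 10 genes, from -1 (blue) to 1 (red). Pecam1, Cdh5, Emcn and Esam form a block of values of at least 0.697, and Plvap, Ocln, Tjp1 and Icam1 stand outside it.

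By highest correlation over the 30 arrays, the genes most like each of the 10 were drawn from all others measured. Emcn was most like Mgp (0.951), Cd93 (0.951) and Tpm4 (0.932), Pecam1 most like Lama4 (0.92), Cd93 (0.918) and Meox1 (0.908), and Cdh5 most like Lamc1 (0.924), Cd34 (0.915) and Lama4 (0.912). Lama4 and Lamc1 encode laminin chains of vascular basement membrane. Esam was most like Higd1b (0.908), Robo4 (0.907) and Rflnb (0.898). Icam1 was most like Cyba, a phagocyte oxidase subunit (0.852), Rnase4 (0.842) and Ifi204, an interferon-inducible gene (0.838). Plvap was most like Marveld1 (0.822), Slc3a2 (0.816) and Ninj1 (0.809), Vwf most like Stap2 (0.806), Sox18 (0.733) and Sema5b (0.723), and Icam2 most like Bcl6b (0.721), Clec14a (0.715) and Col4a2 (0.706). For Ocln the highest was Abce1 (0.754) and for Tjp1 Rad21 (0.755).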

How the data were processed

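Total RNA from 30 retinas, 1 retina per pup and 3 pups per group, was measured on 1-colour arrays. Per the labels' protocols, 100 ng was amplified and biotin-labelled. The authors deposited log2 values for 22690 probe sets, normalized before deposit. Per the submitters' processing notes the tool was Partek. How probe sets were summarised and arrays normalized is not given in the sources used here. No further scaling was applied to these log2 values.

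Among probe sets, 20380 carried 1 gene symbol, of which 29 lacked a RefSeq match, 691 carried several, 1555 carried none and 64 were controls. Keeping the highest-mean probe set per symbol left 12393 genes. limma 3.58.1 in R 4.3.3 fitted a 10-group model to the 30 arrays, with 20 residual degrees of freedom, and tested 18 contrasts by eBayes, two-sided, with Benjamini-Hochberg adjustment over 12393 genes. A gene was called at an adjusted p under 0.05. Arrays give no counts, so their number limits the precision. Same-numbered arrays were checked for pairing: residual correlations ran from -0.45 to 0.55 over 15 comparisons, and in 0 were all pairs above 0.1, so no block was used.

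The members and gene lists were chosen with earlier results of these data known. Named companion genes are up to 4 called members of a list per contrast with the smallest p, plus Cldn5. Data of 12393 genes were simulated for untreated OIR against normoxia, with 50, 100 and 50 genes changed by 0.5, 1 and 2 log2. Of these 48, 85 and 96% were called, with 12 false calls. The simulated noise was normal, independent between genes and arrays, and of equal spread in every group. Real groups differ in spread and share array differences, so these rates need not hold for the real contrasts. Alternatives were median centring, quantile normalization, every probe set as a feature, no dim genes (lowest 30%), eBayes with trend, only the groups compared, the replicate block, covariates for lens and hybridisation controls (18 probe sets), and leaving out each array. Leaving out 2 P12 arrays of low interquartile range, and the alternatives for the lists, were added after seeing the data.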

Additional observations from a re-analysis of the deposited data

How the results depend on the processing

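For untreated OIR against normoxia the count of members called was 6 under every alternative run, and no difference of a member reversed where it was called. With 2908 of the single-gene values on the same side of the threshold, 51 lost and 21 gained a call. Alternatives moved other counts. P5 saline against normoxia (4) gave 1 with the lens covariate and 0 with only the groups compared. P5 saline against untreated OIR (4) gave 7 without the dimmest 30% of genes. P12 saline against untreated OIR (3) gave 1 with quantile normalization and 1 with median centring. P5 CD34 against P5 saline (2) gave 0 with only the groups compared. P5 combination against P5 CD34 (1) gave 2 without the dimmest 30%, 2 with the lens covariate and 0 with only the groups compared. With the hybridisation control covariate the ECFC difference between days (0) gave 2 and the CD34 one (0) gave 1. Fits with only the groups compared hold 6 arrays, and more for the differences between days, which take in more groups. Beyond that, the cause was not tested. Leaving out each array gave 6 to 6 for OIR against normoxia, 1 to 4 for P5 saline and 5 to 6 for P12 saline against normoxia, 3 to 4 for P5 saline and 0 to 3 for P12 saline against untreated OIR, 0 to 2 for P5 CD34, 1 to 3 for P5 combination against P5 CD34 and 0 to 1 for the CD34 difference between days. With a replicate block, Tjp1 in P5 saline against normoxia had an adjusted p of 0.052 and Esam in P5 saline against untreated OIR one of 0.043; the block changed no other call. The 2 P12 arrays of low interquartile range were P12 ECFC replicate 2 and P12 combination replicate 3. Without them the count stayed 0 for P12 ECFC and for P12 combination, each against P12 saline. The counts for P12 saline were 6 against normoxia and 3 against untreated OIR. Those groups hold neither array, so their differences could not change and this check says little about them. Among called genes the share that rose was 78.8% for OIR against normoxia, 64.5% with quantile normalization and 53.8% with median centring; for P12 saline against untreated OIR it was 27.9, 47.7 and 68.9%, for P12 saline against normoxia 36.1, 47.5 and 56.4%, for P5 saline against normoxia 48.2, 40.8 and 30.5% and for P5 combination against P5 CD34 54.5, 60.9 and 64.8%. Counts over companion lists ranged from 2 to 7 for other junction genes and 8 to 12 for receptors and factors in OIR against normoxia, where the main counts were 6 and 12. In P5 saline against untreated OIR they ranged from 0 to 9 (main 3) and from 4 to 12 (main 9), and for other adhesion genes from 3 to 10 (main 8). In P5 CD34 against P5 saline they were 0 to 7 for junction genes (main 6) and 0 to 7 for adhesion genes (main 4). Array signal bounds what can be said of Ocln, the dimmest of the 10 genes.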
